A study of Homo sapiens with 12 samples.

Results

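HOX genes encode homeodomain transcription factors and lie in 4 clusters, HOXA on chromosome 7, HOXB on chromosome 17, HOXC on chromosome 12 and HOXD on chromosome 2. The members described here were all genes whose symbol is HOX followed by a cluster letter and a number, without antisense names. The rule found 39 of the 61806 genes measured: 11 in HOXA, 10 in HOXB, 9 in HOXC and 9 in HOXD. They were compared in K1 and TPC-1, established human cell lines of papillary thyroid cancer. Cells were harvested 24 h after transfection, and their total RNA was sequenced from random-primed cDNA. Each of the 4 groups held 3 libraries: K1 with siRNA against TRIM35, K1 with a negative control (NC) siRNA, TPC-1 with TRIM35 siRNA and TPC-1 with NC siRNA. TRIM35 belongs to the tripartite motif family of ubiquitin ligases. All 12 libraries carry the genotype label WT and differ in cell line and siRNA alone. The title of TPC-1 NC library 3 names another line while its remaining labels say TPC-1; it was kept, and leaving it out is reported beside the results.

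Within a cluster, HOX genes stand in the order in which they are used along the body axis, low numbers towards the head and high numbers towards the tail, and genes with the same number in different clusters form a paralog group. Retinoic acid activates the low-numbered end first, Polycomb proteins keep silent genes closed, and MLL-type methyltransferases keep active genes open. HOX proteins bind DNA together with cofactors of the PBX and MEIS families. Adult cells often keep the HOX code of the body region they came from, and tumours frequently change it.

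The lines kept different clusters active. K1 expressed mainly HOXB, led by HOXB7, and part of HOXD; TPC-1 expressed mainly the low-numbered end of HOXA, led by HOXA5, at a much lower total. Levels are given as FPKM, which scales reads to exon length and library total, so that genes of different length can be compared. The summed FPKM of the 39 genes was 14.92, 15.78 and 16.47 in K1 siRNA libraries, 16.78, 15.16 and 13.77 in K1 NC libraries, 3.30, 2.61 and 2.18 in TPC-1 siRNA libraries, and 3.78, 3.37 and 2.37 in TPC-1 NC libraries. Every K1 library lay above every TPC-1 library, whereas siRNA and NC libraries overlapped within each line. In these bulk libraries fewer expressing cells and less RNA per cell cannot be told apart. HOXB7 had the highest FPKM of the 39 genes in all 6 K1 libraries, and HOXA5 in all 6 TPC-1 libraries.

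TRIM35 itself was measured first, as the targeted gene. Its level was 1.20, 1.49 and 1.53 FPKM in K1 siRNA libraries, against 1.51, 1.85 and 1.47 FPKM in K1 NC libraries, which overlap. In TPC-1 it was 2.34, 2.56 and 2.58 FPKM in siRNA libraries, against 2.86, 2.91 and 3.06 FPKM in NC libraries, which do not overlap. The log2 fold change of siRNA over NC was -0.19 ± 0.17 (SE) in K1 and -0.24 ± 0.16 (SE) in TPC-1, and edgeR's quasi-likelihood test with Benjamini-Hochberg adjustment gave an adjusted p of 1 in each. TRIM35 mRNA was thus not called lower in either line.

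Libraries held between 16705044 and 22928861 counts, of which 638 to 950 fell on HOX genes in K1 and 124 to 186 in TPC-1. As a check of cell identity, 3 of 13 thyroid follicular cell markers reached a mean of 1 FPKM in each line. PAX8, a thyroid transcription factor, averaged 115 FPKM in K1 and 19.6 in TPC-1, while NKX2-1, another thyroid transcription factor, had no read in either line. Summed fibroblast markers ran from 7.53 to 9.53 FPKM in K1 and from 1.83 to 2.55 in TPC-1. THY1 carried most of the K1 sum, at 7.03 FPKM against 0.0933 in TPC-1, and PDGFRB most of the TPC-1 sum, at 0.407 FPKM in K1 against 1.71 in TPC-1. The 6 epithelial markers summed to between 50.3 and 77.6 FPKM in K1 and between 38.2 and 47.7 in TPC-1. Of these 5 were tested. KRT8, KRT19 and EPCAM were higher in K1 in both line comparisons, and the other tested markers were not called. KRT8 averaged 26.6 FPKM in K1 and 1.89 in TPC-1, and KRT18 32.8 in K1 and 40.2 in TPC-1. EPCAM was low in both lines, at 0.443 FPKM in K1 and 0.135 in TPC-1. Of the 6 markers 3 reached a mean of 1 FPKM in K1 and 2 in TPC-1, where 1 had no read. Summed leukocyte markers ran from 0.84 to 1.24 FPKM in K1 and from 0.20 to 0.63 in TPC-1. PTPRC, the common leukocyte antigen, averaged 0.173 FPKM in K1 and 0.0483 in TPC-1, CD68 0.533 in K1 and 0.195 in TPC-1, and LYZ 0.238 in K1 and 0.135 in TPC-1, whereas CD3E, which defines T cells, was at 0 in K1 and 0.055 in TPC-1. Summed endothelial markers ran from 1.42 to 2.00 FPKM in K1 and from 0.08 to 0.11 in TPC-1. KDR averaged 1.55 FPKM in K1 and 0.025 in TPC-1, and CDH5 0.00333 FPKM in K1 and 0.00167 in TPC-1. The marker sums therefore moved with the line, and their part in the HOX differences was not tested.

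The start-site windows of HOXA2 and HOXD10 are shown because HOXA2 had the lowest log2 fold change in NC libraries among the HOX genes that passed the filter on low counts, and HOXD10 was the leading HOXD gene, and each has 1 RefSeq window. Each runs from 250 bases before to 50 bases after the start that RefSeq annotates on GRCh38.p14, written 5′ to 3′ on the gene's strand. Capitals mark matches, on either strand, to TGATNNAT (the PBX-HOX composite site) or TGACAG (the MEIS site). HOXA2 lies on the minus strand at chr7:27102634-27102933 and HOXD10 on the plus strand at chr2:176116528-176116827, inside the longer span that the deposited table gives HOXD10.
HOXA2: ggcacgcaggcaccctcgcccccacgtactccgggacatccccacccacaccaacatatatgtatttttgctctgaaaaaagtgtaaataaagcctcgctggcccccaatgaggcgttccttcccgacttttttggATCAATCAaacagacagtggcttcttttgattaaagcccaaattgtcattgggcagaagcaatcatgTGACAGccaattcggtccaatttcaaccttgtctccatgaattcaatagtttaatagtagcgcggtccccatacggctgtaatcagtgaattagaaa
HOXD10: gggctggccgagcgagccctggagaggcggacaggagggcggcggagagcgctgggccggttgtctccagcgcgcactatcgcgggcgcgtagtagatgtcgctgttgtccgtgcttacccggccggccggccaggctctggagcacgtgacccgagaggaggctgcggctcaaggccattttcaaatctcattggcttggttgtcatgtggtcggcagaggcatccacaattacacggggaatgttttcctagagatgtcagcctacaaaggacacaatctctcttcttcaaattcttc
The HOXA2 window held 1 match to each motif and the HOXD10 window none; such matches are letters in a window, not bound sites. RefSeq windows were found for 20 of the 39 members, 27 windows in all; HOXA3 gave 7 of them, HOXC4 and HOXC5 share 1, and HOXA5 and HOXB2 to HOXB9 have no entry, so the shares leave out the leading genes of both lines. TGATNNAT was in 3 of these 27 windows (11.1%), against 7.4% of all 35116 promoter windows, and TGACAG in 4 (14.8%), against 15.8%. TATAAA was in 5 of 27 HOX windows (18.5%), against 11.5% of all windows. The retinoid receptor half-site AGGTCA was in 0 of 27 HOX windows, against 13.8% of all windows. The median GC content was 58% in HOX windows and 58.7% in all windows. The median ratio of observed to expected CpG was 0.849 in HOX windows and 0.579 in all windows, without a test of the difference.

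The HOXB cluster carried 75.4% of the HOX FPKM in K1, with 43.0% from HOXB7 alone, and 9.14% in TPC-1. Its summed level was 11.6 ± 0.928 FPKM in K1 siRNA and 11.8 ± 1.33 in K1 NC libraries, against 0.300 ± 0.0656 in TPC-1 siRNA and 0.237 ± 0.0252 in TPC-1 NC libraries (SD, n = 3 each). The HOXA cluster showed the opposite order, with 0.937 ± 0.0751 FPKM in K1 siRNA and 0.757 ± 0.117 in K1 NC libraries, against 2.34 ± 0.520 in TPC-1 siRNA and 2.86 ± 0.671 in TPC-1 NC libraries (SD, n = 3 each). HOXA thereby made up 5.47% of the HOX FPKM in K1 and 88.5% in TPC-1, where HOXA5 alone gave 38.3%. HOXD stood at 17.1% in K1 and 0.398% in TPC-1. Its summed level was 3.21, 2.84 and 2.66 FPKM in K1 siRNA libraries, against 2.57, 2.37 and 2.25 FPKM in K1 NC libraries. These groups did not overlap, unlike those of the other clusters, but the sum was not tested and no HOXD gene was called. HOXD4, most of whose exonic bases overlap another gene, gave 0.16, 0.33 and 0 FPKM of the siRNA sums. It gave 0.04, 0 and 0.05 FPKM of the NC sums, and without HOXD4 the groups overlap. In TPC-1 the HOXD sum was at most 0.05 FPKM in siRNA and 0.02 in NC libraries. HOXC was low in both lines, at 2.02% of the HOX FPKM in K1 and 1.99% in TPC-1.

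**Figure D1:**
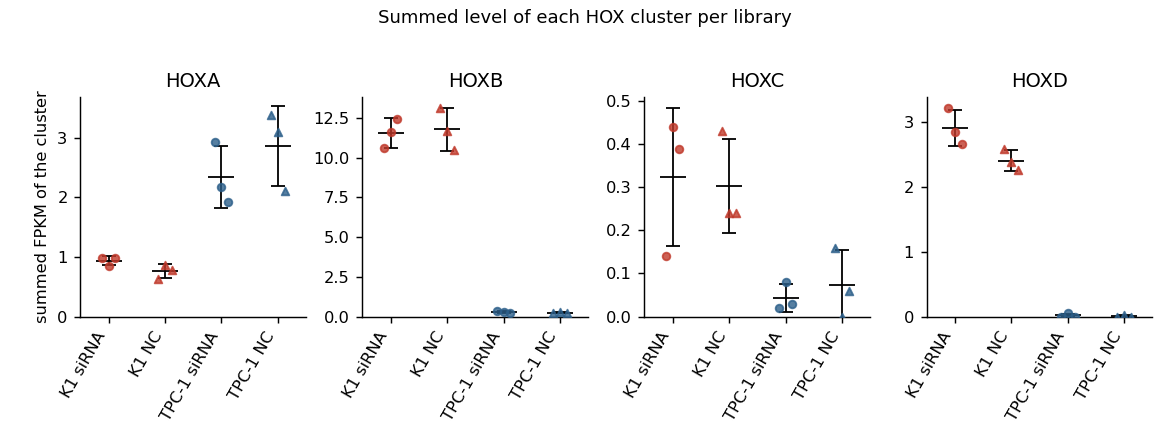
Summed FPKM (vertical axis, linear, from 0) of the HOXA, HOXB, HOXC and HOXD genes in each library of the 4 groups; bars show the mean and SD of 3 libraries. HOXA sums lie between 0.63 and 0.98 in K1 and between 1.92 and 3.38 in TPC-1, and HOXB sums between 10.5 and 13.15 in K1 and between 0.21 and 0.36 in TPC-1.

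By position, K1 kept a long run of HOXB active and TPC-1 a run at the low-numbered end of HOXA. In K1, reads were found in all 6 libraries for HOXA2, HOXA3, HOXA5, HOXA6 and HOXA11, HOXB2 to HOXB7 and HOXB9, HOXC8 and HOXC10, and HOXD8 to HOXD11. In TPC-1 they were found in all 6 for HOXA2 to HOXA6, without a gap, and for HOXB3. HOXA4 and HOXA6 had few reads there and share exonic bases with other genes. Within the K1 run HOXB8 stood out: it had 0 reads in all 6 K1 libraries, which allows at most 0.0105 FPKM over the line at a limit of 3 counts, although HOXB7 before it had 1213 reads and HOXB9 after it 93. A single HOXB8 read was found in TPC-1 siRNA library 3. No read fell on HOXB1, HOXB13, HOXC5, HOXC12, HOXC13 or HOXD1 in any library; 7 of the 39 genes were without a read in K1 and 16 in TPC-1.

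**Figure D2:**
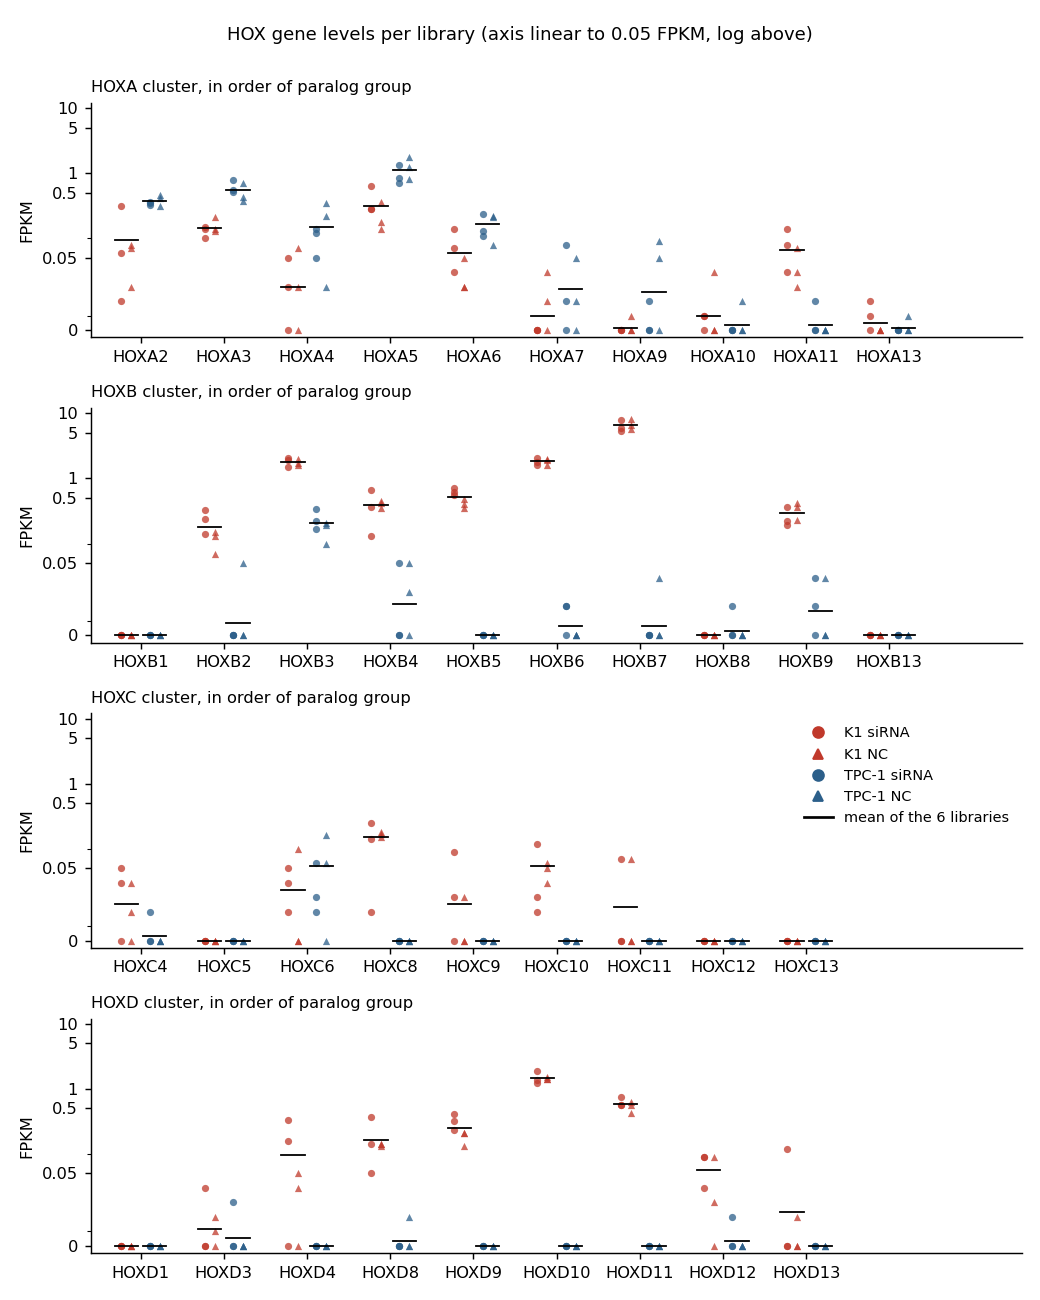
FPKM of the HOX genes reported here (vertical axis linear to 0.05 and logarithmic above) in order of paralog group, 1 panel per cluster; points are libraries and horizontal bars the mean of the 6 libraries of a line. K1 points form a raised run from HOXB2 to HOXB7 with a gap at HOXB8, and TPC-1 points are highest at HOXA2, HOXA3 and HOXA5.

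Summed by paralog group, K1 was highest in group 7, at 6.67 ± 1.22 FPKM, followed by group 3 at 1.95 ± 0.239, group 6 at 1.93 ± 0.200 and group 10 at 1.53 ± 0.196 (SD, n = 6). Groups 3, 6 and 10 overlapped over the K1 libraries. TPC-1 was highest in group 5, at 1.13 ± 0.412 FPKM, followed by group 3 at 0.773 ± 0.220 and group 2 at 0.378 ± 0.0656 (SD, n = 6). The ranges of groups 5 and 3 overlapped, while group 2 lay below both. From group 7 upwards no group averaged more than 0.0433 FPKM in TPC-1. K1 and TPC-1 overlapped in groups 2, 4, 5, 12 and 13, and K1 lay above TPC-1 in every library for groups 3 and 6 to 11.

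**Figure D3:**
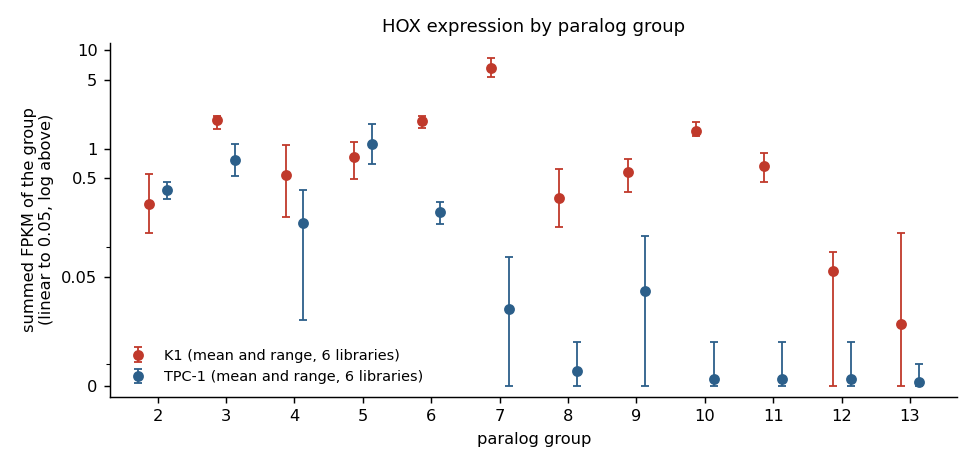
Summed FPKM of paralog groups 2 to 13 (vertical axis linear to 0.05 and logarithmic above) in K1 and TPC-1; points are means and bars the range over 6 libraries, siRNA and NC together. K1 peaks at group 7 with 6.67 FPKM, whereas TPC-1 is highest at group 5 with 1.13 FPKM and falls to 0.0433 FPKM or less from group 7 on.

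The lines were then compared gene by gene with edgeR, K1 over TPC-1, once among siRNA libraries and once among NC libraries. These comparisons share no library. Both came from 1 model of all 12 libraries with a common filter, scaling and spread, so they are not fully independent. A gene was called at an adjusted p under 0.05 over all 17447 genes that passed the filter on low counts; 12 of the 39 HOX genes passed it. Among siRNA libraries 11 of 39 were called, 8 higher and 3 lower in K1, where 68.3% of all tested genes were called, 35.9% higher and 32.4% lower. Among NC libraries 11 of 39 were called, again 8 higher and 3 lower, where 67.9% of all tested genes were called, 35.8% higher and 32.1% lower. The 11 genes were the same and moved the same way in both comparisons. Since most genes differed between the lines, the number of HOX genes called is not a result about HOX genes. By cluster, the 6 HOXB and 2 HOXD genes tested were higher and HOXA2, HOXA3 and HOXA5 were lower; a gene high in 1 line passes the filter through that line, so these counts only describe. Called HOXB and HOXD genes had an adjusted p of at most 0.00117 in each comparison. Without TPC-1 NC replicate 3, 13 HOX genes were called among siRNA libraries and 12 among NC libraries. The siRNA comparison does not hold that library. Leaving it out also reran the filter and the estimate of the spread, so the genes tested can differ. The cause of the higher counts was not tested. Nothing on the labels says whether the libraries of a group came from separate cultures, so p-values rest on the scatter among libraries alone, and that scatter may be technical.

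HOXB7, a trunk-patterning gene often studied in tumours, was the strongest HOX gene of the series. Its level was 5.38, 5.95 and 7.96 FPKM in K1 siRNA libraries and 8.26, 6.67 and 5.71 FPKM in K1 NC libraries. TPC-1 had 0 FPKM in all 3 siRNA libraries, and 0, 0.04 and 0 FPKM in NC libraries, where the value in library 2 was 1 read. The ranges were far apart. With 552 reads in K1 and 0 in TPC-1 siRNA libraries, HOXB7 was at least 201-fold higher in K1, against a limit of 3 counts over the group; in NC libraries, with 661 reads and 1 read, the ratio was 582 (95% interval 104 to 23000, counting error only). The adjusted p was 4.12e-09 in siRNA and 5.69e-09 in NC libraries. The gene (ENSG00000260027) lies on the minus strand of chromosome 17 at 48607232 to 48633572 on hg38, and shares no exonic base with another gene in GENCODE 29.

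HOXB6, its neighbour, had 1.60, 2.06 and 1.80 FPKM in K1 siRNA libraries and 1.93, 2.00 and 1.59 FPKM in K1 NC libraries. In TPC-1 it had 0.02, 0 and 0.02 FPKM in siRNA libraries, and 0 in every NC library. No K1 library came near a TPC-1 library. The read ratio was 147 in siRNA libraries (270 against 2 reads, 95% interval 40.4 to 1223), and HOXB6 was at least 88.3-fold higher in K1 in NC libraries. Its exons share 16.6% of their bases with another gene on the same strand, HOXB3, and 16.3% with the antisense gene HOXB-AS3; reads there cannot be assigned to 1 gene with certainty, since strandedness of the libraries is not given in the sources used here.

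HOXB3, a hindbrain gene and the longest of the measured HOXB genes, was the HOXB member that TPC-1 expressed in every library. It had 2.03, 1.91 and 1.48 FPKM in K1 siRNA libraries and 1.63, 1.70 and 2.02 FPKM in K1 NC libraries. In TPC-1 it had 0.34, 0.22 and 0.17 FPKM in siRNA libraries and 0.19, 0.10 and 0.21 FPKM in NC libraries. All K1 values lay above all TPC-1 values. The log2 fold change of K1 over TPC-1 was 2.79 ± 0.24 (SE) in siRNA libraries (adjusted p = 4.8e-08) and 3.28 ± 0.25 (SE) in NC libraries (adjusted p = 1.36e-08). HOXB3 had more reads in K1 than HOXB7, 1568 against 1213, but a lower level per kilobase, because its exons span 7425 bases against 1520. Of its exonic bases 7.94% overlap HOXB6 or HOXB4.

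The remaining tested HOXB genes were weaker but followed the same direction. HOXB5, which acts in enteric neural crest development, had 0.61, 0.71 and 0.55 FPKM in K1 siRNA and 0.49, 0.41 and 0.35 FPKM in K1 NC libraries, with no read in any TPC-1 library. It was at least 24.0-fold higher in K1 in siRNA and at least 14.4-fold higher in NC libraries. HOXB4, known for expanding blood stem cells, ranged from 0.13 to 0.66 FPKM in K1, with a median of 0.390, and from 0 to 0.05 FPKM in TPC-1, with a median of 0.015. The lines did not overlap. The HOXB4 read ratio was 24.6 in siRNA libraries (45 against 2 reads, 95% interval 6.42 to 209) and 14.7 in NC libraries (50 against 3 reads, 95% interval 4.74 to 73.5).

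HOXB9, a gene of the thoracic region, ranged from 0.19 to 0.42 FPKM in K1, with a median of 0.295, and from 0 to 0.04 FPKM in TPC-1, with a median of 0.01. Here too the lines did not overlap. The HOXB9 ratio was 13.5 in siRNA libraries (37 against 3 reads, 95% interval 4.26 to 68.3) and 24.6 in NC libraries (56 against 2 reads, 95% interval 6.51 to 208). With so few reads in TPC-1, single libraries set the size of the fitted difference: without TPC-1 NC replicate 2 the log2 fold change was 7.09 for HOXB9, against 4.29 with it, and 10.65 for HOXB7, against 8.65 with it. For HOXB4 it was 6.88 without TPC-1 siRNA replicate 2 and 3.58 without K1 siRNA replicate 2, against 4.23, and in NC libraries 4.50 without TPC-1 NC replicate 1, against 3.65. For HOXB9 in siRNA libraries it was 4.37 without TPC-1 siRNA replicate 2, against 3.51. The direction and the call were kept in each. HOXB2 did not pass the filter; it had 32 reads in K1 and 0 in TPC-1 siRNA libraries, which is at least 11.6-fold higher, and 17 against 2 in NC libraries, a ratio of 7.48 (95% interval 1.78 to 66.7).

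In HOXD, K1 expressed the middle of the cluster and TPC-1 almost none of it. HOXD10, a limb and lower-trunk gene, had 1.85, 1.22 and 1.37 FPKM in K1 siRNA libraries and 1.53, 1.41 and 1.42 FPKM in K1 NC libraries, with no read in any of the 6 TPC-1 libraries. It was at least 74.2-fold higher in K1 in siRNA libraries and at least 66.0-fold higher in NC libraries, with adjusted p = 1.44e-07 and 1.93e-07 in that order. HOXD11, which patterns forearm and kidney in the mouse, had 0.56, 0.76 and 0.56 FPKM in K1 siRNA and 0.62, 0.57 and 0.42 FPKM in K1 NC libraries, again with no read in TPC-1. It was at least 27.7-fold higher in siRNA and at least 21.1-fold higher in NC libraries. The genes share 452 exonic bases, 16.8% of HOXD10 and 21.4% of HOXD11, so their levels are not fully separate.

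Their neighbours did not pass the filter. HOXD9 ranged from 0.13 to 0.41 FPKM in K1, with a median of 0.220, and had no read in TPC-1, which makes it at least 12.01-fold higher in siRNA and at least 6.45-fold higher in NC libraries. HOXD8 ranged from 0.05 to 0.37 FPKM in K1 and had 1 read in TPC-1. At the ends of the cluster, HOXD12 had 17 reads in K1 and 1 in TPC-1, and HOXD13 had 7 and 0. HOXD4 had 13 reads in K1 and 0 in TPC-1, and HOXD3 6 and 2, but 80.5% and 62.2% of their exonic bases overlap another gene on the same strand.

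HOXA was the cluster in which TPC-1 stood higher. HOXA5, a gene of lung development in the mouse, had 0.28, 0.28 and 0.63 FPKM in K1 siRNA libraries, against 1.35, 0.85 and 0.70 FPKM in TPC-1 siRNA libraries. In NC libraries it had 0.18, 0.36 and 0.14 FPKM in K1, against 1.79, 1.23 and 0.83 FPKM in TPC-1. HOXA5 thus fell from library 1 to library 3 in both TPC-1 groups. The lines did not overlap, but K1 siRNA library 3 came close to TPC-1 siRNA library 3. HOXA5 was lower in K1 with a log2 fold change of -1.35 ± 0.46 (SE) in siRNA libraries (adjusted p = 0.0161) and -2.55 ± 0.48 (SE) in NC libraries (adjusted p = 2.23e-04). The siRNA call was lost without K1 siRNA replicate 1, K1 siRNA replicate 2 or TPC-1 siRNA replicate 1 (adjusted p = 0.063, 0.0741 and 0.0695 in that order). HOXA5 (ENSG00000106004) lies on the minus strand of chromosome 7 at 27141052 to 27143681 on hg38, with no exonic overlap in GENCODE 29.

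HOXA3, needed for thymus, parathyroid and thyroid development in the mouse, had 0.14, 0.15 and 0.10 FPKM in K1 siRNA libraries, against 0.78, 0.56 and 0.51 FPKM in TPC-1 siRNA libraries. In NC libraries it had 0.13, 0.21 and 0.14 FPKM in K1, against 0.72, 0.43 and 0.38 FPKM in TPC-1. Every K1 value lay below every TPC-1 value. HOXA3 was lower in K1, with a log2 fold change of -2.31 ± 0.35 (SE) in siRNA libraries (adjusted p = 2.65e-05) and -1.75 ± 0.34 (SE) in NC libraries (adjusted p = 2.91e-04). Of its exonic bases 15.4% overlap the antisense genes HOXA-AS2 and HOXA-AS3, and HOXA-AS2 was lower in K1 as well.

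HOXA2, which patterns the pharyngeal arches, had 0.31, 0.06 and 0.02 FPKM in K1 siRNA libraries, against 0.35, 0.33 and 0.36 FPKM in TPC-1 siRNA libraries. In NC libraries it had 0.07, 0.08 and 0.03 FPKM in K1, against 0.46, 0.41 and 0.31 FPKM in TPC-1. K1 siRNA library 1 stood almost at the TPC-1 level, while the other K1 libraries were far below it. HOXA2 was lower in K1, with a log2 fold change of -1.57 ± 0.60 (SE) in siRNA libraries (adjusted p = 0.0285) and -2.71 ± 0.65 (SE) in NC libraries (adjusted p = 0.00164). Without K1 siRNA replicate 1 the siRNA value was -3.01 (adjusted p = 8.88e-04). The siRNA call was lost without K1 siRNA replicate 2 or 3 (adjusted p = 0.128 and 0.0951), without TPC-1 siRNA replicate 1, 2 or 3 (adjusted p between 0.0502 and 0.0593), with DESeq2 (adjusted p = 0.0521), and when only those 2 groups were fitted (adjusted p = 0.0534).

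The other reported HOXA genes had few reads. HOXA4 and HOXA6 did not pass the filter; HOXA4 had 6 reads in K1 and 30 in TPC-1, and HOXA6 had 9 and 25. HOXA7 had 3 and 8 reads, HOXA9 1 and 9, HOXA10 5 and 1, and HOXA13 3 and 1. HOXA11 went the other way from the low-numbered genes of its cluster, with 22 reads in K1, found in all 6 libraries, against 1 in TPC-1. Of its exonic bases 31.1% overlap the antisense gene HOXA11-AS, which was also higher in K1. The antisense gene HOXA-AS3 overlaps 39.3% of HOXA6 and 62.5% of HOXA7. For HOXA4, 31.0% overlap another gene on the same strand. Reads there cannot be assigned to 1 gene with certainty.

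HOXC was close to silent in both lines, and none of its genes passed the filter. HOXC8, a thoracic gene, was the highest in K1, ranging from 0.02 to 0.25 FPKM with a median of 0.160, and had no read in TPC-1. The low value came from siRNA library 1. HOXC8 was at least 6.91-fold higher in K1 in siRNA libraries and at least 7.33-fold higher in NC libraries. HOXC6 was the HOXC gene with most reads in TPC-1, 21 against 15 in K1, and the lines overlapped. HOXC10 had 15 reads in K1, HOXC11 9, HOXC9 5 and HOXC4 8, against 0, 0, 0 and 1 in TPC-1 in the same order.

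**Figure D4:**
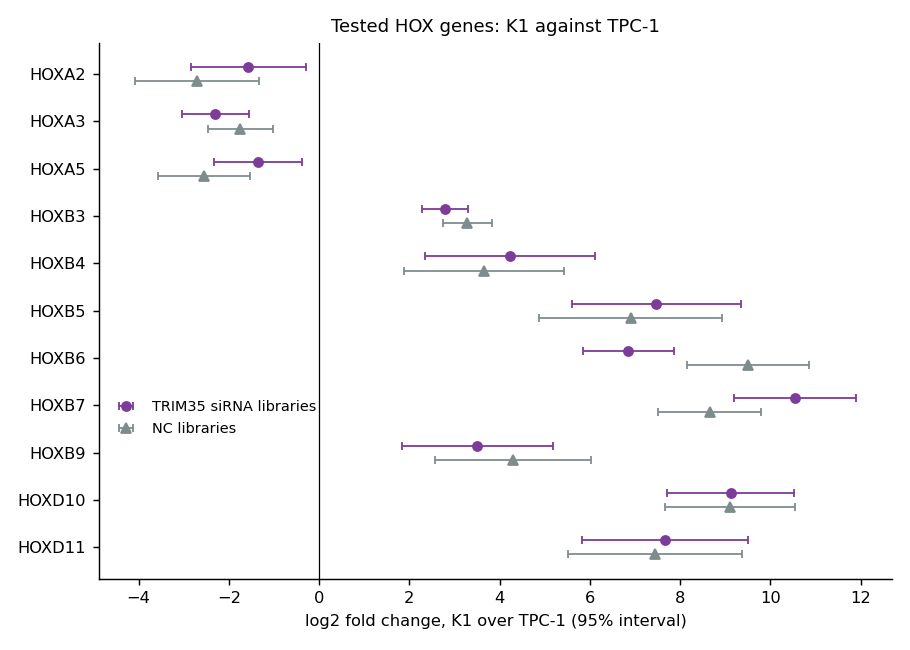
Log2 fold change of K1 over TPC-1 with its 95% interval (horizontal axis) for the 11 HOX genes called, in siRNA libraries (circles) and NC libraries (triangles). HOXA genes lie left of 0 and HOXB and HOXD genes right of 0; values for HOXB5, HOXD10 and HOXD11, and for HOXB6 in NC and HOXB7 in siRNA libraries, rest on TPC-1 groups at 0 reads and are no measure of size.

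The TRIM35 siRNA libraries were then compared with the NC libraries of the same line. No HOX gene was called in K1, in TPC-1, in the average over both lines or in the difference of the effects between lines, where edgeR called 0 of 17447 genes, a background of 0% in each. At an unadjusted threshold of 0.05, edgeR passed 0 HOX genes in K1, 0 in TPC-1, 0 in the difference and 1 in the average. Among all genes, 136 had an unadjusted p under 0.05 in K1, 337 in TPC-1, 277 in the average and 301 in the difference. DESeq2 and limma on log2 FPKM also called 0 HOX genes in each of these comparisons.

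The best measured K1 genes bound the effect most closely. HOXB3 had a log2 fold change of 0.03 ± 0.21 (SE) in K1 (95% interval -0.41 to 0.46), HOXB6 -0.01 ± 0.25 (-0.55 to 0.52), HOXB7 -0.09 ± 0.25 (-0.61 to 0.43) and HOXD10 0.02 ± 0.27 (-0.56 to 0.60). A change in K1 of the size by which the lines differ lay outside these intervals, but a moderate one did not. HOXD11 was at 0.22 ± 0.39 (SE), HOXB5 at 0.57 ± 0.41, HOXB9 at -0.42 ± 0.52 and HOXB4 at -0.07 ± 0.56. HOXA3 was at -0.28 ± 0.39 and HOXA5 at 0.77 ± 0.53 in K1.

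In TPC-1 the HOXA genes could be followed. HOXA5 had a log2 fold change of -0.42 ± 0.41 (SE), with a 95% interval of -1.30 to 0.46, HOXA3 0.27 ± 0.30 (-0.37 to 0.91) and HOXA2 -0.17 ± 0.52 (-1.27 to 0.94). HOXB3 was at 0.52 ± 0.28 (-0.09 to 1.12). HOXA5 thus lay above 0 in K1 and below 0 in TPC-1, and the difference of these effects, K1 minus TPC-1, was 1.19 ± 0.67 (SE; unadjusted p = 0.095, adjusted p = 1). Of the 39 genes, FPKM values of siRNA and NC libraries did not overlap for 2 in K1, HOXB5 and HOXD9, both higher with siRNA, and for 0 in TPC-1. Of the HOX genes with a read in the line, that is 2 of 32 in K1 and 0 of 23 in TPC-1; over all genes with a read, 4.31% did not overlap in K1 and 4.3% in TPC-1. Neither HOXB5 nor HOXD9 was called. HOXD9 had 0.41, 0.23 and 0.32 FPKM in K1 siRNA libraries, against 0.21, 0.21 and 0.13 FPKM in K1 NC libraries.

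**Figure D5:**
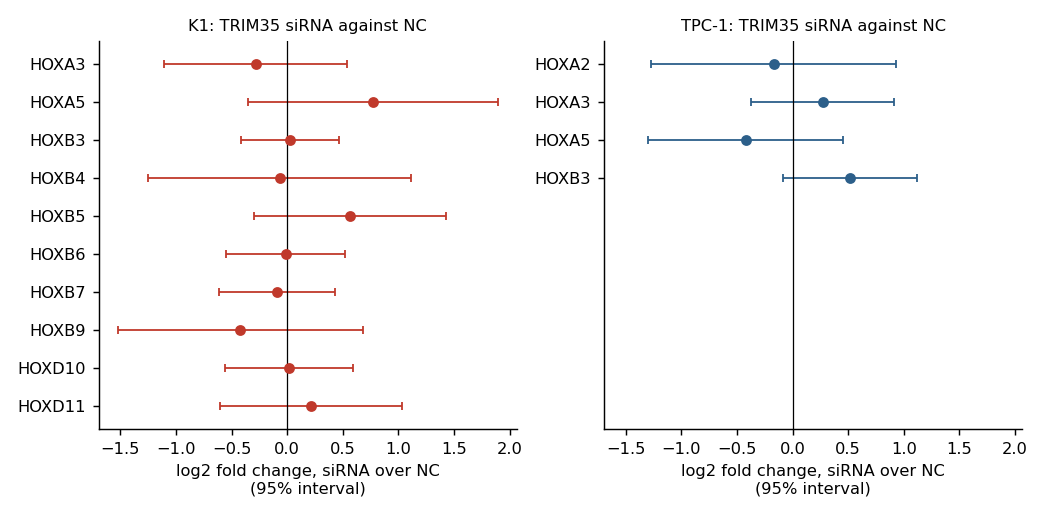
Log2 fold change of TRIM35 siRNA over NC with its 95% interval (horizontal axis) for tested HOX genes that averaged at least 10 counts per library in the line shown, K1 on the left and TPC-1 on the right. Every interval includes 0.

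Genes known to act with or on the HOX clusters were described by lists. Of 9 HOX cofactors 7 were tested; 3 were higher and 3 lower in K1 among siRNA libraries, and 3 higher and 2 lower among NC libraries, where 68.3% and 67.9% of all genes were called; the log2 fold changes had medians of -0.003 and 0.23, against 0.06 over all genes in each. PBX3 averaged 18.5 ± 0.718 FPKM in K1 and 48.0 ± 1.02 in TPC-1 (SD, n = 6 each), a log2 fold change of -1.44 ± 0.11 (SE) in NC libraries. MEIS3 was lower in K1, at -3.22 ± 0.60 (SE), and MEIS1 higher, at 0.84 ± 0.17. PBX3, MEIS3 and MEIS1 had adjusted p at or under 4.11e-04.

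Of 19 retinoic acid pathway genes 15 were tested; 10 were higher and 4 lower in K1 among siRNA libraries, and 11 higher and 3 lower among NC libraries, where 35.9% of all genes were higher and 32.4% lower, and 35.8% and 32.1%. Its median on the log2 scale was 3.12 in siRNA and 2.46 in NC libraries, against 0.06 over all genes in each. ALDH1A3, which makes retinoic acid, averaged 402 ± 26.3 FPKM in K1 and 7.06 ± 0.772 in TPC-1 (SD, n = 6 each), a log2 fold change of 5.79 ± 0.18 (SE) in NC libraries. RDH10, which makes its precursor retinal, was at 3.19 ± 0.16 (SE), and DHRS3, which turns retinal back into retinol, at 4.31 ± 0.23. CRABP1, a retinoic acid binding protein, averaged 7.85 FPKM in K1, with 896 reads, and had no read in any TPC-1 library. Its paralog CRABP2 went the other way, at 4.12 FPKM in K1 and 11.9 in TPC-1. RXRA was likewise lower in K1, at 1.94 FPKM against 4.73 in TPC-1. Retinoic acid was not measured.

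Of 37 chromatin regulators of HOX clusters all 37 were tested; 8 were higher and 17 lower in K1 among siRNA libraries, and 9 higher and 18 lower among NC libraries, where 68.3% and 67.9% of all genes were called in either direction. The medians were -0.24 and -0.37, against 0.06 over all genes in each. JARID2, an accessory Polycomb protein, was higher in K1 at 17.5 ± 1.70 FPKM, against 3.68 ± 0.243 in TPC-1 (SD, n = 6 each), a log2 fold change of 2.18 ± 0.12 (SE) in NC libraries. CBX2, a Polycomb chromodomain protein, was lower in K1 at 0.155 ± 0.0274 FPKM, against 1.39 ± 0.168 in TPC-1 (SD, n = 6 each), a log2 fold change of -3.48 ± 0.21 (SE) in NC libraries. WDR5 and MLLT3, which serve MLL-type complexes and transcription elongation, were lower at -1.68 ± 0.13 and -1.83 ± 0.14 (SE).

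Of 26 symbols listed for noncoding RNAs of the HOX clusters 24 were matched and 2 tested. In siRNA and in NC libraries alike 1 was higher and 1 lower in K1, beside 68.3% and 67.9% of all genes called. HOXA-AS2, antisense to HOXA3, averaged 0.0317 ± 0.0279 FPKM in K1 and 0.525 ± 0.168 in TPC-1 (SD, n = 6 each), a log2 fold change of -3.68 ± 0.55 (SE) in NC libraries (adjusted p = 2.51e-05); it was -4.64 without K1 NC replicate 3 and -3.07 without K1 NC replicate 1. HOXB-AS1 averaged 0.302 ± 0.139 FPKM in K1 and 0.0233 ± 0.0408 in TPC-1 (SD, n = 6 each), with a log2 fold change of 2.63 ± 0.88 (SE) in NC libraries (adjusted p = 0.0163). That call was lost without TPC-1 NC replicate 2 (2.09, adjusted p = 0.0651) or TPC-1 NC replicate 3 (2.47, adjusted p = 0.0583), and the value was 3.86 without TPC-1 NC replicate 1. HOXB-AS3 had 53 reads in K1 and 1 in TPC-1, and HOXA11-AS 57 and 1. The antisense RNAs thus sat higher in the line whose nearby HOX genes were higher, but without strand information their reads and those of the overlapping HOX exons cannot be told apart.

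Genes flanking the clusters were described in the same way. Of 14 symbols listed for flanking genes 13 were matched and 11 tested. In siRNA and in NC libraries alike 3 were higher and 4 lower in K1, where 68.3% and 67.9% of all genes were called. The medians were -0.44 and -0.26, against 0.06 over all genes in each. SNX10, near HOXA, was lower in K1 at 1.15 ± 0.193 FPKM, against 13.5 ± 1.44 in TPC-1 (SD, n = 6 each). Its log2 fold change was -3.54 ± 0.19 (SE) in NC libraries. LNPK, near HOXD, was also lower, at -1.26 ± 0.13, whereas the HOXD genes were higher. Near HOXC, CBX5 was lower at -1.54 ± 0.17 and CALCOCO1 higher at 1.22 ± 0.17. The 5 homeobox genes of the CDX and EVX families, regulators and neighbours of HOX clusters, all failed the filter and summed to at most 0.04 FPKM in K1 and 0.03 in TPC-1. In the siRNA comparisons 0 genes of any of these lists were called.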

How the data were processed

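The submitters' processing notes name cutadapt 1.9.1 and the build hg38. Aligner, counter, annotation and strandedness are not given in the sources. In 1 table the authors deposited whole-number read counts beside FPKM for every gene. Recomputing FPKM from the deposited counts, exonic sizes and library sums matched the deposited values to within 0.01. No molecular identifiers were used. Intervals of read ratios and the limits at 3 counts cover counting error only. Intervals of log2 fold changes also include the scatter among libraries. The title of TPC-1 NC library 3 names another line, while its other labels name TPC-1; it was kept.

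Counts were fitted in R 4.3.3 with edgeR 4.0.16 (filterByExpr, TMM, glmQLFit, glmQLFTest) as 1 model of 4 groups over all 12 libraries, with 8 residual degrees of freedom. The filter kept 17447 genes; the 44359 removed carried 0.0838% to 0.200% of the counts. P-values were adjusted by Benjamini-Hochberg over all genes tested. The SE of a log2 fold change was its size divided by the square root of the quasi-likelihood F statistic. Its 95% interval used 1 t quantile for all genes, at the median of 15.54 degrees of freedom. These SE and intervals are therefore approximate. The fit was tested on simulated counts. Alternatives used DESeq2 1.42.0, limma 3.58.1 on log2(FPKM + 0.1) or log2(FPKM + 1), other scaling and filters, a replicate block, only the groups compared, and each library left out. Where a group had 0 reads, a fold is a lower bound against 3 counts over the group; with 1 to 3 reads, the ratio has an exact 95% interval. Exonic overlap came from GENCODE 29, where all 39 gene IDs were found, 12 of them at the deposited coordinates. Overlap shares, and statements of no overlap, hold for GENCODE 29 gene models. Those can differ from the models on which reads were counted.

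The members, gene lists and tests were chosen with earlier results of these data known. Singly described were HOX genes averaging at least 1 FPKM in a group or called in any comparison, and up to 4 genes per list by adjusted p between lines in NC libraries; 1 HOX gene, 1 cofactor and 1 cell marker are not reported here. Replicate pairs differed beyond sampling noise. Chi-square per degree of freedom ran from 4.33 (K1 siRNA libraries 1 and 2) to 66.4 (TPC-1 siRNA libraries 1 and 3).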

Additional observations from a re-analysis of the deposited data

How the results depend on the processing

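Alternatives were tried in 20 settings. Of 410 values for reported HOX genes between lines, 400 kept direction and call and 10 lost the call (HOXA2 and HOXA5 among siRNA libraries, above). HOX genes called between lines numbered 11 in each comparison; limma on log2(FPKM + 0.1) and on log2(FPKM + 1) called 5 in siRNA and 5 in NC libraries, of only 5 that passed its FPKM filter, and without a filter on low counts 17 were called in siRNA and 16 in NC libraries. Shared replicate numbers were not taken as pairs, since not every correlation was over 0.1: deviations of same-numbered siRNA and NC libraries correlated at -0.491, 0.086 and -0.526 in K1 and at 0.379, 0.086 and 0.406 in TPC-1. In TPC-1 each library correlated best with its own number (other numbers -0.413 to 0.059), a hint from the data; in K1 it did not. With a replicate block 11 HOX genes were called in each line comparison and 0 under siRNA. Among all genes, siRNA against NC had 0 called in each comparison, against 2 in K1, 2 in TPC-1, 1 in the average and 4 in the difference without a filter, and 1 in TPC-1 and 2 in the difference with DESeq2; leaving out 1 library gave 0 to 1 in the difference. Uncalled siRNA effects in K1 changed sign with 1 library left out: HOXB3 between -0.033 and 0.12, HOXB4 between -0.72 and 0.32, HOXB6 between -0.13 and 0.10, HOXB7 between -0.32 and 0.10, and HOXD10 between -0.13 and 0.16; HOXB6 was also at 0.001 with RLE size factors. The cause of these changes was not tested. Depth limits the low genes: 27 of 39 HOX genes were not tested, and TPC-1 had at most 186 HOX reads in a library.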
